A study of Homo sapiens with 2 samples.

Results

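MALAT1 and NEAT1 are long noncoding RNAs that stay in the nucleus and are transcribed from neighbouring genes on human chromosome 11. They were chosen by gene symbol because of the large part of the sequenced counts that they took, and they are 2 of the 24462 gene symbols counted. The study measured messenger RNA in A549, a much used cell line from a human lung adenocarcinoma, by QuantSeq, a method that primes on poly(A) and reads mainly the 3′ end of a transcript. It holds 1 library from cells transfected with ADGRF4 siRNAs (ADGRF4 encodes an adhesion G protein-coupled receptor) and 1 library from cells transfected with control siRNAs, both grown in DMEM with fetal bovine serum. The libraries held 9825320 counts after ADGRF4 siRNA and 10396047 counts after control siRNA. There is no replicate of either treatment, so every difference below lies between 2 libraries, no test between the treatments is possible, and each stated range covers counting error alone.

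MALAT1 RNA gathers at nuclear speckles, the bodies in which splicing factors are stored. NEAT1 RNA is the scaffold of paraspeckles, bodies that hold RNA-binding proteins such as NONO and SFPQ, and only its long form builds them. The 3′ ends of MALAT1 and of the long form of NEAT1 are not made by the usual cleavage and polyadenylation: RNase P cuts in front of a small RNA that folds like a tRNA, and the end left behind is an A-rich stretch encoded in the genome, protected by U-rich stretches that fold around it as a triple helix. The short form of NEAT1 ends at an ordinary polyadenylation signal. An oligo(dT) primer can therefore start on MALAT1 from genome-encoded adenosines.

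The 3′ ends are shown because they are where a poly(A)-primed library would read these RNAs. Sequences and positions come from GENCODE 29 on GRCh38, plus strand, whereas the submitters' processing notes name hg19 for the counts, so no read is placed on these positions. Capitals mark runs of at least 4 A or at least 4 T (U in the RNA). The small RNA of MALAT1 lies at chr11:65506117-65506173 and is known as mascRNA. The 140 bases in front of it are chr11:65505977-65506116. The last 140 bases of the long form of NEAT1 are chr11:65445401-65445540, and an annotated small RNA of 58 bases starts at the next base. The last 140 bases of a short form are chr11:65426374-65426513.

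MALAT1, end before the small RNA: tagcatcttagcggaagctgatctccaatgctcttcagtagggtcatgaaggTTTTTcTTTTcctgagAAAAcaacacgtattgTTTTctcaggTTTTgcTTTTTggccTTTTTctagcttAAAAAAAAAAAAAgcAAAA
MALAT1, the small RNA: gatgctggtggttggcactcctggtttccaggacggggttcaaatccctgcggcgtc
NEAT1, long form: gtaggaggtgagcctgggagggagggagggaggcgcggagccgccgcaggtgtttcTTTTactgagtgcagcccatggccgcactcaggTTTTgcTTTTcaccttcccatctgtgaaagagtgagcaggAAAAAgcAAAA
NEAT1, short form: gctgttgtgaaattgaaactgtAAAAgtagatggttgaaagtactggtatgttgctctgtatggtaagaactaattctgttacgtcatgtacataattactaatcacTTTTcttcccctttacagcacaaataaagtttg

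The MALAT1 end and the long NEAT1 end share their last 11 bases, aaaaagcaaaa, and a stretch of 16 bases around a U-rich run, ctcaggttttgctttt. On the transcript's own strand, the 11 bases occurred in the last 140 bases of 11 of 11131 compared transcripts of the same annotation (0.0988%). The 16 bases occurred in 1 of them, the long form of NEAT1. MALAT1 carried a run of 13 A directly before its last 6 bases, and a run of at least 13 A was found in 1.65% of the 11131 ends. The long NEAT1 end held no run above 5 A. The polyadenylation signal AATAAA was present in the short NEAT1 end and in neither of the ends cut by RNase P, and 65.2% of the 11131 ends held it. Along their whole length, MALAT1 (8708 bases in 1 exon) held 2 runs of at least 8 A and the long form of NEAT1 (22743 bases in 1 exon) held 6, the longest of 22 A, while the short form (2994 bases) held 0.

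ADGRF4 had 1 count after ADGRF4 siRNA and 3 counts after control siRNA, at or under the 3 counts that a count of 0 allows, so the silencing could not be read from these libraries and does not check their labels. Of the epithelial markers, the keratins KRT18 (79367 counts after ADGRF4 siRNA and 58990 after control siRNA), KRT7 (16919 after ADGRF4 siRNA and 7451 after control siRNA) and KRT8 (7529 after ADGRF4 siRNA and 13756 after control siRNA) were abundant. CDH1, which encodes E-cadherin, had 239 counts after ADGRF4 siRNA and 1218 after control siRNA, KRT19 had 139 after ADGRF4 siRNA and 140 after control siRNA, and EPCAM had 38 after ADGRF4 siRNA and 75 after control siRNA, so these markers had no common direction. The lung markers SFTPB, SFTPA1 and SCGB1A1 had 0 counts in both, and NKX2-1 had 0 counts after ADGRF4 siRNA and 6 after control siRNA. The log2 ratios of the 11771 symbols that averaged 30 counts or more had a standard deviation of 0.77, and after ADGRF4 siRNA 10.4% of these symbols were lower by 2-fold or more and 7.84% higher by 2-fold or more.

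MALAT1 took a smaller part of the library after ADGRF4 siRNA. It had 95233 counts, 0.969% of the library (exact binomial 95% interval 0.963% to 0.975%), after ADGRF4 siRNA, against 221298 counts, 2.13% of the library (2.12% to 2.14%), after control siRNA. In other words, 1 in 103 counts was MALAT1 after ADGRF4 siRNA and 1 in 47.0 after control siRNA. The difference was 1.16 percentage points of all counts. By count, MALAT1 was the 3rd symbol after ADGRF4 siRNA, behind FTL, the light chain of ferritin, and GAPDH, a glycolytic enzyme, and the 1st symbol after control siRNA.

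On the scale of edgeR's TMM factors, which set library sizes from the bulk of genes with small differences, MALAT1 stood at 10205 CPM (counts rescaled to a common library size) after ADGRF4 siRNA and 20217 CPM after control siRNA. It was 1.98-fold lower after ADGRF4 siRNA (exact Clopper-Pearson 95% interval 1.966 to 1.996), a log2 ratio of -0.99. That lies just short of 2-fold. Of the pair, 0 symbols were at least 2-fold lower on this scale, beside 10.4% of all compared symbols. Scaled by total counts it was 2.196-fold lower (2.18 to 2.21) and so passed 2-fold there, as did 13.3% of compared symbols, while 4.72% passed 2-fold higher. The same change of scale shifts every symbol, and moves the median compared symbol from -0.02 to -0.16. Relative to that median MALAT1 lay at -0.97 with TMM and at -0.98 with total counts.

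NEAT1 differed much less on these scales. It had 11162 counts, 0.114% of the library (0.112% to 0.116%), after ADGRF4 siRNA, against 14656 counts, 0.141% (0.139% to 0.143%), after control siRNA. It stood at 1196 CPM after ADGRF4 siRNA and 1339 CPM after control siRNA on the TMM scale, 1.12-fold lower (1.09 to 1.15) with a log2 ratio of -0.16. With total counts it was 1.24-fold lower (1.21 to 1.27). Its rank by count was 109 after ADGRF4 siRNA and 73 after control siRNA. The counts are per symbol and do not separate the short from the long form of NEAT1.

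**Figure D1:**
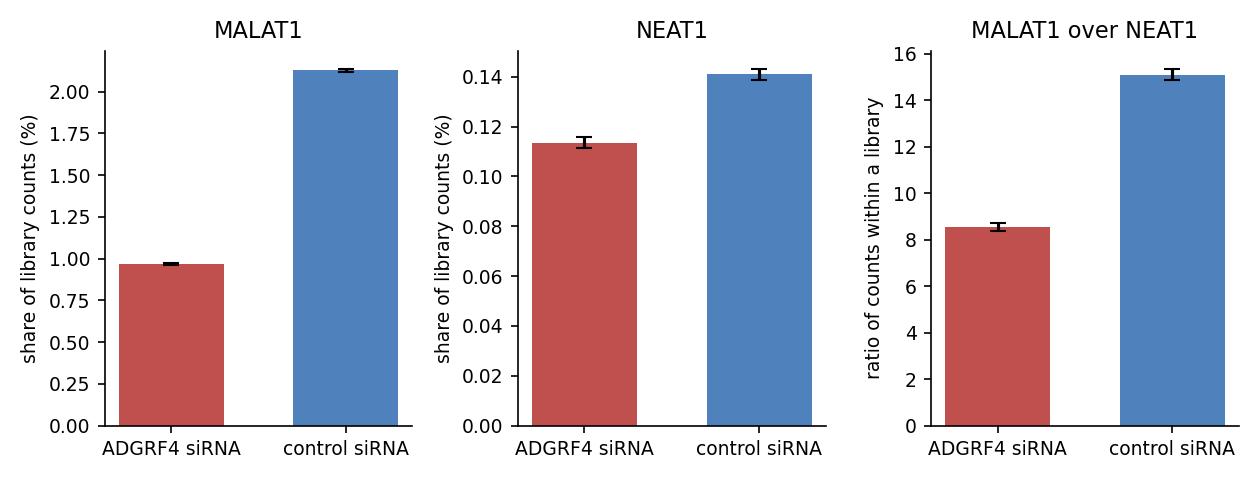
Share of all library counts (%) for MALAT1 (left) and NEAT1 (middle), and the ratio of MALAT1 to NEAT1 counts within a library (right). Each bar is 1 library, and error bars are exact 95% intervals for counting error alone; MALAT1 took 0.969% of counts after ADGRF4 siRNA and 2.13% after control siRNA, and the ratio was 8.53 after ADGRF4 siRNA and 15.1 after control siRNA.

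The balance between MALAT1 and NEAT1 does not depend on scaling by 1 factor per library. It does depend on centring by GC content of the 3′ end, given below, which sets each symbol against symbols of like composition. Centred in that way, MALAT1 lay at -0.80 or -0.82, and NEAT1 at -0.66 by its long end and at 0.04 by its short end. There were 8.53 MALAT1 counts for each NEAT1 count after ADGRF4 siRNA (8.37 to 8.70), against 15.1 after control siRNA (14.8 to 15.4). The ratio was 1.77-fold lower after ADGRF4 siRNA (exact conditional interval 1.72 to 1.82). MALAT1 made up 89.5% of the pair's counts after ADGRF4 siRNA and 93.8% after control siRNA. This is a ratio of counts and not of molecules, because priming inside a transcript can count it more than once, and reads were not assigned to positions in these files. In bulk RNA, less MALAT1 per cell and fewer cells that carry it cannot be told apart.

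Together the pair took 1.08% of the library after ADGRF4 siRNA and 2.27% after control siRNA. With the pair counted in the totals, the share left to all other symbols was 1.01 times as large after ADGRF4 siRNA as after control siRNA, 0.02 on the log2 scale, and taking the pair out removes that difference. The TMM factors moved the ratios by 0.15 on that scale. Without MALAT1, the 10 most abundant symbols took 7.44% of counts after ADGRF4 siRNA and 5.54% after control siRNA.

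Among abundant symbols, MALAT1 lay on the low side. Of all 11771 compared symbols, 10.6% had a lower ratio than MALAT1 and 42.0% had a lower ratio than NEAT1. In the 1177 symbols with the most counts, 6.29% lay below MALAT1 and 28.8% below NEAT1, and the median log2 ratio was 0.22. At least 2-fold lower were 6.20% of these 1177, and 12.6% were at least 2-fold higher. Of the 20 symbols with the highest mean count, 7 passed 1.5-fold higher after ADGRF4 siRNA, and MALAT1 was the 1 symbol that passed 1.5-fold lower. Their median was 0.44 on the log2 scale, and the highest was GAPDH at 1.23.

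**Figure D2:**
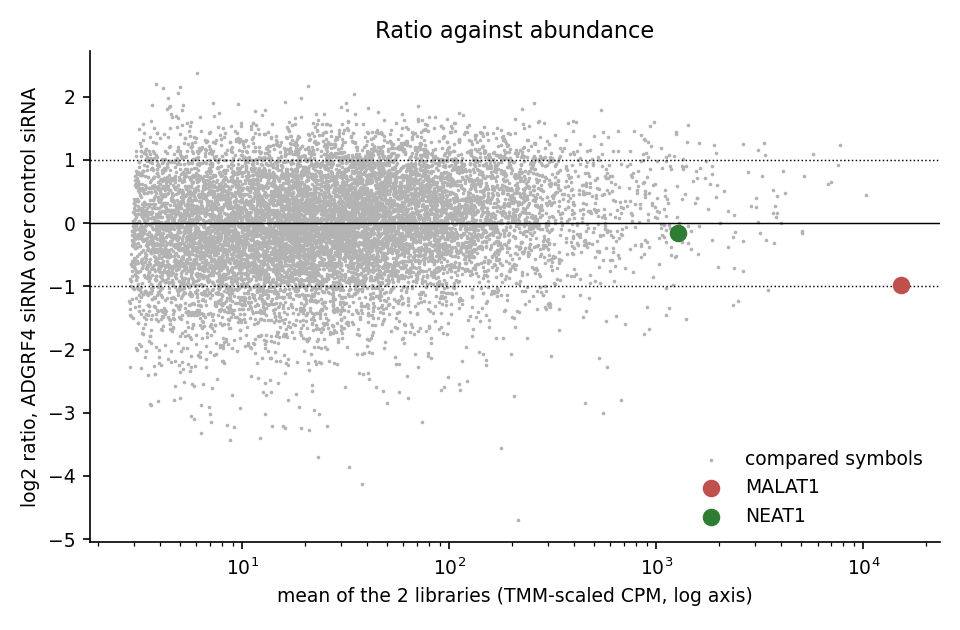
Log2 ratio of ADGRF4 siRNA over control siRNA (vertical) against the mean TMM-scaled CPM of the 2 libraries (horizontal, log axis) for the 11771 compared symbols in grey, with dotted lines at 2-fold. MALAT1, at the far right, lies at -0.99, and NEAT1 lies at -0.16.

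The symbols next to MALAT1 in abundance went the other way. FTL, the 2nd by mean count, had 110488 counts after ADGRF4 siRNA and 95017 after control siRNA and was 1.36-fold higher (1.35 to 1.38). GAPDH, the 3rd, was 2.35-fold higher (2.32 to 2.37), with 101239 counts after ADGRF4 siRNA and 50603 after control siRNA. Both messengers have processed pseudogenes that can share their reads. The last 300 bases of FTL and GAPDH have 52% and 56% GC, against 37.7% for MALAT1. Compared symbols with the GC content of FTL had a median log2 ratio of 0.37, against 0.45 for FTL. Those with the GC content of GAPDH had a median of 0.57, against 1.23 for GAPDH. NEAT1 was the 84th symbol by mean count. Its neighbours in rank were PGD, an enzyme of the pentose phosphate pathway, at a log2 ratio of 0.91, the nucleolar proteins NPM1 at 0.01 and NCL at 0.10, and the ribosomal protein gene RPL19 at -0.53. No order among symbols that close in count can be read as an order of RNA level, since 3′ counts depend on how each end is primed and mapped.

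With 2 libraries, likeness of pattern is only likeness of a single ratio. Among the 1957 symbols that averaged 1000 counts or more, the ratios nearest to that of MALAT1 were those of ACTN4, an actin cross-linker, at -0.985, TMCO1, a calcium channel of the endoplasmic reticulum, at -0.995, and ARHGAP18 at -1.001. The nearest to NEAT1 were the ribosomal protein genes RPS24 and RPS16 and WIPF2, an actin regulator, all at -0.16.

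The distance of both RNAs from like symbols depended on the base composition of the 3′ end. Ratios across the libraries followed the GC content of the last 300 bases, with medians of -0.35 in the 625 compared symbols with the lowest GC and 0.84 in the 545 with the highest. MALAT1 has 37.7% GC there by its annotated end and 39.7% in the 300 bases before the small RNA. Symbols of those compositions had median log2 ratios of -0.19 and -0.17, so that MALAT1 lay at -0.80 or -0.82 relative to them. Of the symbols of like composition, 13.5% and 11.6% lay below MALAT1.

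For NEAT1 the choice of end decided whether it lay below symbols of like composition or near their median. The end of the long form has 55% GC, and symbols of that composition had a median of 0.50, against which NEAT1 lay at -0.66, with 17.9% of them below it. The end of the short form has 35.7% GC, where the median was -0.20, and NEAT1 lay at 0.04, with 51.7% below it. What share of the NEAT1 counts came from each form was not tested.

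**Figure D3:**
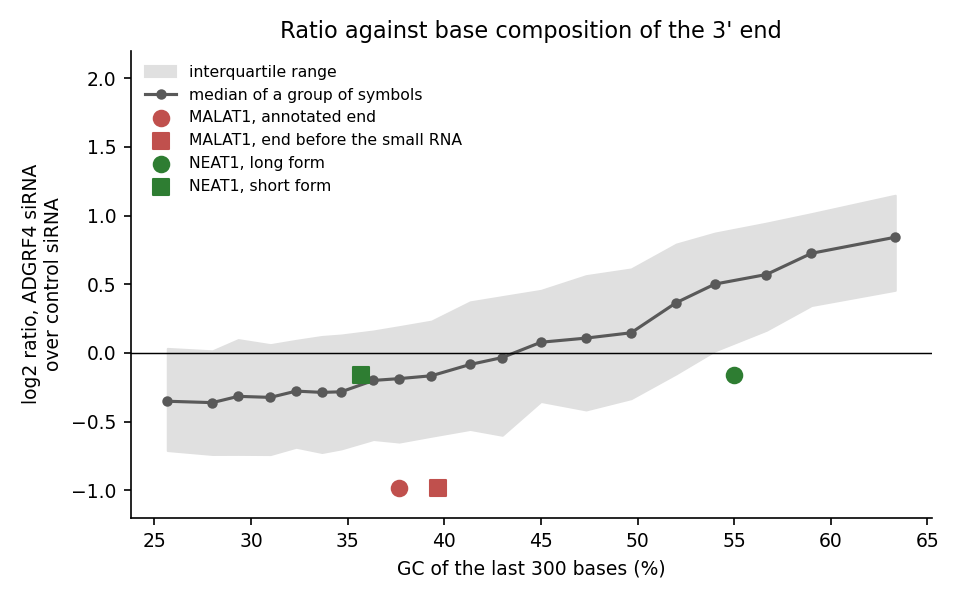
Log2 ratio of ADGRF4 siRNA over control siRNA against the GC content (%) of the last 300 bases. The line joins medians of 20 groups of symbols ordered by GC and the band is the interquartile range of each group; MALAT1 lies at -0.99 for both of its ends, below the band, whereas NEAT1 at -0.16 lies below the band by its long end and near the line by its short end.

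**Figure D4:**
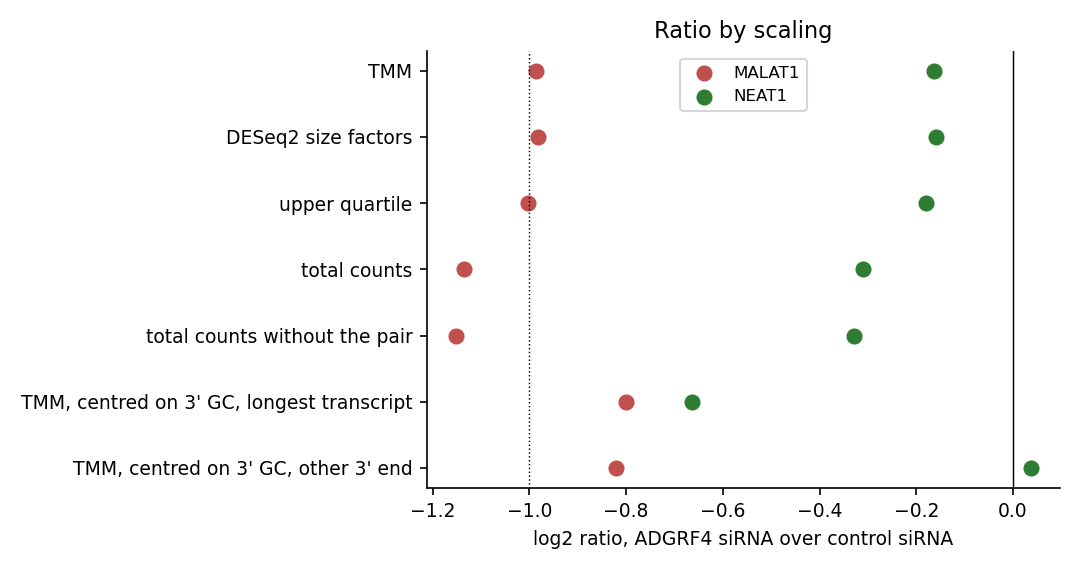
Log2 ratio of ADGRF4 siRNA over control siRNA for MALAT1 and NEAT1 under each way of scaling the libraries or centring on 3′ GC. A dotted line marks 2-fold lower. MALAT1 lies between -1.15 and -0.80, and NEAT1 between -0.66 and 0.04.

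Other noncoding RNAs did not share a direction. Of 51 listed, 43 were in the files and 32 were compared; after ADGRF4 siRNA 10 were lower by 1.5-fold or more and 8 higher, with a median of -0.15, against 22.3% of all compared symbols lower and 21.1% higher, with a median of -0.02. By total counts 10 of the 32 were lower and 6 higher, against 27.7% and 16.1% of all compared symbols. After centring on 3′ GC, 8 of the 29 with a value were lower and 5 higher, against 19% and 15.3% of all symbols centred in the same way. ZFAS1, a snoRNA host, was 3.57-fold lower (3.30 to 3.88), with 744 counts after ADGRF4 siRNA and 3118 after control siRNA. LINC00473, a cAMP-induced RNA, was 4.04-fold lower (2.65 to 6.37), with 27 counts after ADGRF4 siRNA and 128 after control siRNA. Its count after ADGRF4 siRNA lay below the limit for compared symbols, which LINC00473 passed through the control siRNA library. The same held for SNHG15 and DLEU2, singled out after their values were seen. SNHG15 had 29 counts after ADGRF4 siRNA and 77 after control siRNA, and DLEU2 had 29 and 74 in that order. At a mean of at least 100 counts, 6 of 25 noncoding RNAs were lower and 6 higher, beside 1788 and 1983 of all 8855 symbols. SNHG7 was 2.75-fold, SNHG5 2.34-fold and SNHG6 1.94-fold lower, all of them snoRNA hosts. Hosts had no common direction: SNHG16, with the most counts of the list, was 1.16-fold higher (1.10 to 1.22). Singled out after their values were seen, SNHG1 was 2.04-fold, SNHG11 2.02-fold and SNHG9 1.64-fold higher. H19, an imprinted RNA, was 2.78-fold higher, with 237 counts after ADGRF4 siRNA and 100 after control siRNA. The H19 end has 61.7% GC, and symbols of that composition had a median log2 ratio of 0.84, against 1.38 for H19. Among nuclear RNAs singled out after their values were seen, KCNQ1OT1 was 1.18-fold lower (1.08 to 1.28), while TUG1 lay at a ratio of 0.984 (0.905 to 1.07).

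The catalytic RNA of RNase P, the enzyme that cuts the MALAT1 end, was among the highest of the list. RPPH1 had 69 counts after ADGRF4 siRNA and 10 after control siRNA, 8.09-fold higher (4.15 to 17.6). RMRP, the related RNA of RNase MRP, was 4.83-fold higher (2.81 to 8.76), with 70 counts after ADGRF4 siRNA and 17 after control siRNA. Both are made by RNA polymerase III without a poly(A) tail, and both have GC-rich ends (64.0% and 63.1%). Both counts are low, with means of 39.5 for RPPH1 and 43.5 for RMRP. Their counts after control siRNA lay below the limit for compared symbols, which they passed through the ADGRF4 siRNA library. Neither is kept at a mean of at least 100 counts. With the pseudocount, the log2 ratios were 2.13 for RPPH1 and 1.74 for RMRP. Whether RNase P itself differed was not tested.

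Long noncoding symbols as a class differed little in their summed share of the library. By the types in the annotation, 2146 such symbols other than the pair summed to 1.19% of counts after ADGRF4 siRNA and 1.15% after control siRNA. Among the 311 compared, 6.11% passed 2-fold lower and 7.72% passed 2-fold higher, against 10.4% and 7.84% of all compared symbols, and the median was 0.16, against -0.02. The most abundant after NEAT1, looked up once the class had been summed, was SNHG25, a snoRNA host. It had 16963 counts after ADGRF4 siRNA and 7294 after control siRNA, 2.73-fold higher after ADGRF4 siRNA (2.65 to 2.80). The SNHG25 end has 62.2% GC, and symbols of that composition had a median log2 ratio of 0.84, against 1.45 for SNHG25. TAPT1-AS1, with 3250 counts after ADGRF4 siRNA and 11588 after control siRNA, was 3.04-fold lower (2.92 to 3.16). Its reads cannot be separated from those of genes on the other strand unless strand was used in counting, and no source used here states that. The same holds for MALAT1, since RefSeq annotates an antisense RNA, TALAM1, across it.

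Proteins of paraspeckles, the bodies that NEAT1 builds, went both ways. All 38 listed genes were compared; 7 passed 1.5-fold lower and 8 passed it higher, with a median of -0.17. These are 18.4% lower and 21.1% higher, near the 22.3% and 21.1% of all compared symbols. By total counts 12 were lower and 6 higher, beside 27.7% lower and 16.1% higher of all compared symbols. HNRNPF, which binds G-rich RNA, had 282 counts after ADGRF4 siRNA and 2121 after control siRNA and was 6.41-fold lower (5.66 to 7.29). The cold-induced RNA-binding protein genes RBM3 and CIRBP differed in opposite directions: RBM3 was 2.15-fold lower (2.03 to 2.27) and CIRBP 1.90-fold higher (1.78 to 2.03). The CIRBP end has 68.7% GC, and symbols of that composition had a median log2 ratio of 0.84, near the 0.92 of CIRBP. The RBM3 end has 44% GC, where the median was -0.03, and RBM3 lay at -1.10. RBMX, an RNA-binding protein gene with retrocopies, was 2.07-fold higher, with 11425 counts after ADGRF4 siRNA and 6467 after control siRNA, and FAM98A was 2.51-fold higher. HNRNPK, which is needed for paraspeckles, was 1.31-fold lower (1.26 to 1.36). The core proteins, named here for their role after their values were seen, lay close to NEAT1: SFPQ at -0.24, NONO at -0.21 and PSPC1 at -0.04 on the log2 scale.

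Genes of nuclear speckles, where MALAT1 gathers, had 8 members that passed 1.5-fold lower and 3 that passed it higher. The other 27 of the 38 compared lay between, and the median was -0.20. The 21.1% lower is near the 22.3% of all compared symbols, and the 7.89% higher stands beside 21.1% of them. EIF4A3, a helicase of the exon junction complex, was 5.94-fold lower (4.86 to 7.32), with 110 counts after ADGRF4 siRNA and 766 after control siRNA. SRSF1, a splicing factor that binds MALAT1, was 2.98-fold lower (2.67 to 3.34), with 399 counts after ADGRF4 siRNA and 1396 after control siRNA. The subunits of the U2AF splicing factor also differed in opposite directions, with U2AF1 2.43-fold lower (2.30 to 2.57) and U2AF2 2.05-fold higher (1.94 to 2.16). RBM8A was 1.75-fold higher (1.66 to 1.84), with 3969 counts after ADGRF4 siRNA and 2665 after control siRNA. SRSF11, with the most counts of the list, was 1.05-fold lower (1.01 to 1.08), much less than SRSF1. SRRM2, a speckle scaffold protein, was 1.12-fold higher (1.09 to 1.16). The 3′ ends of this list have a median of 34.3% GC, and after centring on GC the median of the list was -0.06, with 6 lower and 4 higher, beside 19% lower and 15.3% higher of all symbols centred in that way.

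Factors that form or guard the 3′ ends lay near the background. Of 32 listed, 30 were compared; 5 passed 1.5-fold lower and 6 passed it higher, with a median of -0.15. These 16.7% lower and 20% higher stand beside 22.3% and 21.1% of all compared symbols. By total counts 9 were lower and 5 higher, beside 27.7% lower and 16.1% higher of all compared symbols. The RNase P proteins POP5, POP7 and RPP21 were 2.29-fold (1.96 to 2.68), 1.87-fold and 1.87-fold higher. ELAC2, the RNase Z that trims the small RNA, was 1.82-fold higher (1.64 to 2.02), with 923 counts after ADGRF4 siRNA and 594 after control siRNA. The RNase P proteins RPP38 and RPP30 were 1.70-fold and 1.62-fold lower. The other RNase P proteins of the list, POP1, POP4, RPP14, RPP25 and RPP40, lay between -0.28 and 0.02 on the log2 scale. METTL16, which binds the MALAT1 triple helix, was 1.68-fold higher (1.46 to 1.94). METTL16 and all RNase P proteins other than POP5, POP7 and RPP21 were singled out after their values were seen. EXOSC3, a subunit of the RNA exosome, was 2.45-fold lower (1.79 to 3.39).

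For genes around the MALAT1 and NEAT1 loci, the sign of the median depended on centring by GC. Of 20 listed neighbours, 18 were compared; 1 passed 1.5-fold lower and 8 passed it higher, with a median of 0.17; by total counts these were 3 and 6. Over all compared symbols 22.3% were lower and 21.1% higher, and by total counts 27.7% were lower and 16.1% higher. FRMD8, next to NEAT1, had 673 counts after ADGRF4 siRNA and 881 after control siRNA and was 1.12-fold lower (1.01 to 1.24). It was picked for its position. SLC25A45 was 2.94-fold, EHBP1L1 2.59-fold and LTBP3, a binding protein of latent TGF-beta, 2.12-fold higher, and SSSCA1 was 2.41-fold lower. The neighbours have GC-rich 3′ ends, 57.0% in the median, and after centring on GC 4 of the 17 with a value were lower and 1 higher, with a median of -0.23, against 19% lower and 15.3% higher of all symbols centred in that way.

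None of the 14 compared regulators that have been linked to transcription of NEAT1 or MALAT1 passed 1.5-fold lower, and 5 passed 1.5-fold higher, with a median of 0.38; by total counts 2 passed it higher, and after centring on GC 3 did. All compared symbols gave 22.3% lower and 21.1% higher, 16.1% higher by total counts, and 15.3% higher after centring. CARM1, an arginine methyltransferase, was 1.96-fold higher (1.83 to 2.10), with 2189 counts after ADGRF4 siRNA and 1312 after control siRNA. SP1 was 1.70-fold, HSF1, the heat shock factor, 1.66-fold, STAT3 1.59-fold and RELA 1.53-fold higher. EPAS1 and HIF1A, the hypoxia-inducible factors, were 1.12-fold (1.03 to 1.22) and 1.14-fold (1.08 to 1.22) higher.

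**Figure D5:**
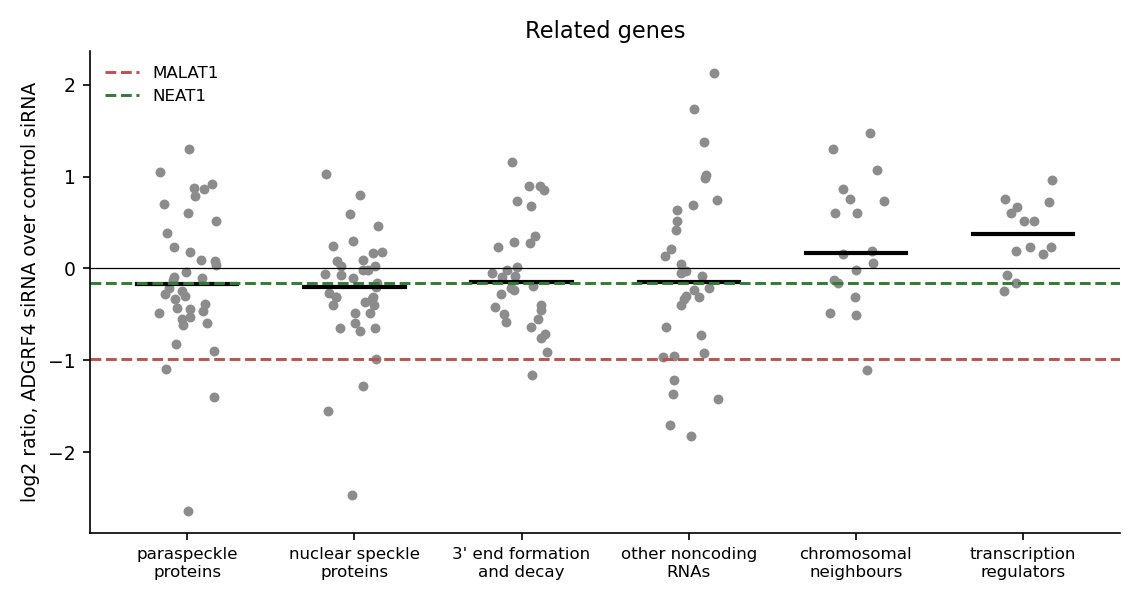
Log2 ratio of ADGRF4 siRNA over control siRNA for each compared member of 6 gene lists (grey points) with the median of each list (black bars), and dashed lines at MALAT1 (-0.99) and NEAT1 (-0.16). Medians lie between -0.20 for nuclear speckle proteins and 0.38 for transcription regulators.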

How the data were processed

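For each of the 2 libraries the authors deposited a table of raw counts, 1 symbol and 1 whole number a row, with no normalization named in the header. Libraries were made from 500 ng of total RNA with the Lexogen QuantSeq kit, per the labels' protocols. Bowtie2, edgeR and hg19 are named in the submitters' processing notes; no source used here gives their roles, the annotation, the strand setting or how multiply mapped reads were handled. The 25737 rows hold 24462 symbols; rows of 286 repeated symbols were summed, and MALAT1 and NEAT1 have 1 row each.

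Libraries were scaled by TMM (edgeR 4.0.16, R 4.3.3). Log2 ratios are log2 of (ADGRF4 siRNA CPM + 1) over (control siRNA CPM + 1), which understates low genes; folds have no pseudocount. Symbols averaging 30 counts or more (11771) were compared, of which 94.6% had a 3′ GC value, and centring used 20 GC groups. Intervals cover counting error only and treat each count as independent. Where counts are amplified duplicates of the same molecule, the intervals are too narrow. The ratio calculation was tested on simulated data. Python 3.11.15, numpy 2.4.6, pandas 2.3.3, scipy 1.17.1 and matplotlib 3.10.9 were used, and size factors from DESeq2 1.42.0.

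The members and lists were chosen with earlier results of these data known. By rule, the text names up to 6 members of a list with the largest ratios, up to 3 with most counts, the symbols next to each RNA in rank and the 3 nearest in ratio; others are marked as chosen after their values were seen. The pair was chosen on these counts, so its values are a description.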

Additional observations from a re-analysis of the deposited data

How the results depend on the processing

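No paired analysis was possible because each treatment has 1 library, and no replicate could be left out. The log2 ratio of MALAT1 was below 0 under each of the 9 alternatives run: -1.13 with total counts, -1.15 with total counts less the pair, -1.003 with the upper quartile, and -0.80 or, with the end before the small RNA (chosen after seeing the data), -0.82 after centring on 3′ GC. It passed 2-fold lower with total counts, with total counts less the pair and with the upper quartile. NEAT1 gave -0.31 with total counts, -0.33 with total counts less the pair, -0.66 after centring by its long form and 0.037 by its short form (also added after seeing the data). DESeq2 size factors moved neither by more than counting error. Nor did pseudocounts of 0.1 and 5, which could hardly move a ratio at the CPM of these RNAs. Taking only the largest row of a symbol, also among the 9 alternatives, could not move either, because each RNA has 1 row.

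Less the pair, the MALAT1 share was 0.980% after ADGRF4 siRNA and 2.18% after control siRNA, and that of NEAT1 0.144% after control siRNA; over symbols averaging 30 counts or more, MALAT1 was 2.14% after control siRNA. With total counts, 12 of 38 paraspeckle genes, 9 of 30 genes of 3′ ends and 3 of 18 neighbours passed 1.5-fold lower. Of the regulators, 2 of 14 passed it higher, beside 27.7% lower and 16.1% higher of all compared symbols. After centring, 5 of 29 noncoding RNAs, 1 of 17 neighbours and 3 of 14 regulators were higher, and 4 of 17 neighbours lower. All symbols centred in that way gave 15.3% higher and 19% lower. At a mean of 100 counts, 6 of 25 noncoding RNAs and 0 of 14 neighbours were lower, beside 1788 of all 8855 symbols. With a pseudocount of 0.1, 2 of 18 neighbours were lower, beside 2762 of all 11771 symbols. Over all 11771 symbols, 923 were 2-fold higher and 1219 lower in the main setting. With total counts 556 of 11771 were 2-fold higher, and after centring 417 of 11139. At a mean of 100 counts 811 of 8855 were 2-fold lower, so part of that fall in number comes from fewer symbols. Where no cause follows from the setting, the cause was not tested.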
